A study of Mus musculus with 33 samples.

Results

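The Aire-high libraries are 4 bulk RNA libraries of sorted thymic epithelial cells (TEC) from 6-week-old wild-type C57BL/6 mice. They were chosen from the 20 TEC libraries of that age by 1 measured value: Aire made up more than 0.1% of their UMIs, the unique molecular identifiers by which RNA molecules are counted. The 16 other 6-week libraries form the comparison, and the whole series holds 33 libraries. The 4 carry the titles mTEC4 with the number 189, and cTEC, mTEC1 and mTEC2 with the number 191. The titles, in which cTEC and mTEC stand for cortical and medullary TEC, were ignored in forming the 2 sets, because marker genes contradict them. The sources used here do not say what the numbers mark, which surface markers sorted the cells, or whether animals were pooled.

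The series followed TEC over development by MARS-seq, a method that sequences and counts the 3' ends of transcripts, and set them beside skin cells. The other groups used here were TEC of postnatal day 6 titled mTEC1, mTEC2 and mTEC4 (2 libraries each) and TEC of embryonic days 17 and 15 (E17 and E15, 2 libraries each). These are also wild-type C57BL/6. A further 3 libraries hold cells called HFC, sorted from dorsal skin of 4-week-old C57BL/6 mice as positive for Foxn1.EGFP. Levels are given as CPM, UMIs per 1000000 UMIs of a library.

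Aire is a nuclear protein through which medullary TEC transcribe a large set of genes that otherwise belong to other organs. Developing T cells that recognise the resulting self antigens are deleted or become regulatory T cells, and loss of AIRE causes autoimmune disease in humans. Fezf2 is a zinc finger transcription factor with a related role for another set of self antigens. Cells at the Aire stage are also known for high MHC class II and for the costimulatory ligands Cd80 and Cd86, and later states of the medulla include cornified, tuft, microfold and neuroendocrine-like cells.

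Aire itself, whose values chose the libraries, stood at 1998 CPM in mTEC4 189, 2405 in cTEC 191, 2156 in mTEC1 191 and 2486 in mTEC2 191. The 16 other libraries had a lowest value of 0, a median of 73.2 and a highest value of 216 CPM. The rule's threshold of 0.1% is 1000 CPM, so the library just inside it is mTEC4 189 with 0.1998% and the one just outside is mTEC4 191 with 0.0216%. No 6-week library lay between them. Fezf2 was not used by the rule but comes from the same libraries. It had 1077, 1497, 1091 and 1080 CPM in the Aire-high libraries in the same order, against 4.59 to 464 CPM with a median of 132 in the others. The 2 sets did not overlap for either gene, and the bar plot of both genes by library shows the gap.

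**Figure D1:**
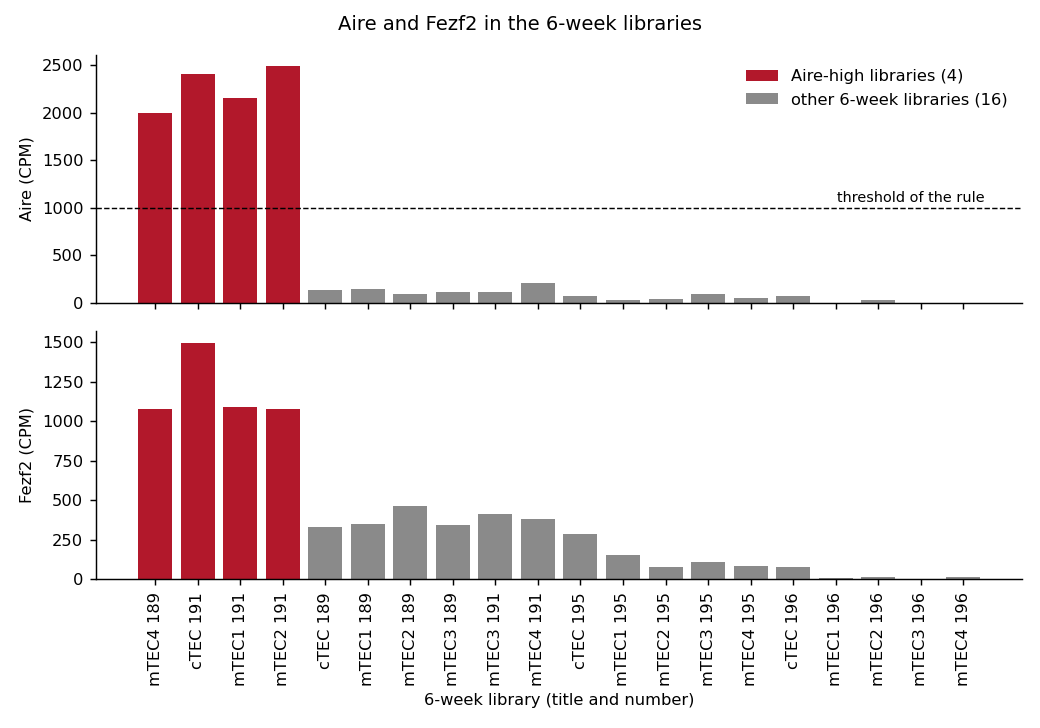
Aire (top) and Fezf2 (bottom) in each 6-week library, in CPM on linear axes that start at 0; red bars are the 4 Aire-high libraries and grey bars the 16 others, in the order of the deposited table. Aire is between 1998 and 2486 CPM in the red bars and at most 216 in the grey ones, and Fezf2 is at least 1077 in the red bars and at most 464 in the grey ones.

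The label was set against a list of 16 genes of Aire-stage medullary TEC, Aire and Fezf2 among them. Without these 2 genes, all 14 others had a positive difference. Their summed level was 64820, 41822, 57935 and 41008 CPM in the Aire-high libraries, above the 4022 to 28098 CPM of the others. The list shares H2-Aa, H2-Eb1, Cd74, Ctss and Ciita with the MHC class II list read below, so the 2 sums are not separate results. H2-Aa, whose level is given below, weighs heavily in this sum. Against the titles, the summed level of 13 cortical TEC genes, among them the thymoproteasome subunit Psmb11, was 2154 to 3042 CPM in the Aire-high libraries, cTEC 191 included. It reached 14041 to 24286 CPM in the 4 libraries titled mTEC1 to mTEC4 with the number 196. Tuft cell genes were highest, at 13920 to 15601 CPM in sum, in mTEC2, mTEC3 and mTEC4 195 and in cTEC 196. Cornified genes reached 11571 to 20062 CPM in mTEC3 and mTEC4 191 and in cTEC and mTEC1 195, and genes of immature, Krt5-high medullary TEC 7998 to 9401 CPM in the 4 others of number 189. The 16 others were therefore a mixture of libraries with different leading markers. In the column order of the deposited table, places 11 to 14 held the Krt5-high libraries, 15 to 18 the Aire-high, 19 to 22 the cornified-high, 23 to 26 the tuft-high and 27 to 30 the cortical-high ones. Each run of 4 adjacent columns thus shared its leading markers and mixed titles or numbers. Whether each column name belongs to its library could not be settled, so any value below given by title or number carries that doubt.

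The libraries differed in depth, and that limits what a 0 means. The Aire-high libraries held 1369629, 609865, 527768 and 838998 UMIs, against 98670 to 970628 in the others. A count of 0 allows a level of up to 3 UMIs, which is 2.19 to 5.68 CPM in the Aire-high libraries and 3.09 to 30.4 CPM in the others; these floors cover counting error only. At an equal depth of 98670 UMIs the Aire-high libraries were expected to show 10596, 11113, 10517 and 10769 genes, and the others 8828 to 10270 with a median of 9546. The 2 sets did not overlap in this count. Across 13610 genes the Aire-high libraries correlated with each other at 0.878 to 0.927 and with the others at 0.569 to 0.755 on the log2 scale, as a description over genes that share libraries. In bulk RNA, fewer cells of a type and less RNA per cell cannot be told apart, so every level below is a level of the sorted mixture.

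Because Aire in these libraries chose the sets, all 6-week differences are given without a test. A difference is that of the mean log2(normalized UMIs + 1), at a scale of 570253 UMIs, between the Aire-high and the other libraries. A gene is called separated when this difference is at least 1, which is 2-fold, and the 2 sets of libraries do not overlap. By that description 751 of 13610 genes were separated as higher in the Aire-high libraries (5.52% of genes) and 59 as lower (0.434%). Each count of separated genes in a list below is to be read beside these shares. That a separated gene does not overlap between the sets follows from this rule and is no further result. With overlap allowed, 2856 genes passed 2-fold upward and 925 downward, and the median difference over all genes was 0.08. The 751 genes had a median difference of 2.90, 350 of them were 8-fold or more higher and 116 were 16-fold or more higher. None of the 59 lower genes reached 8-fold, and their median was -1.52.

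**Figure D2:**
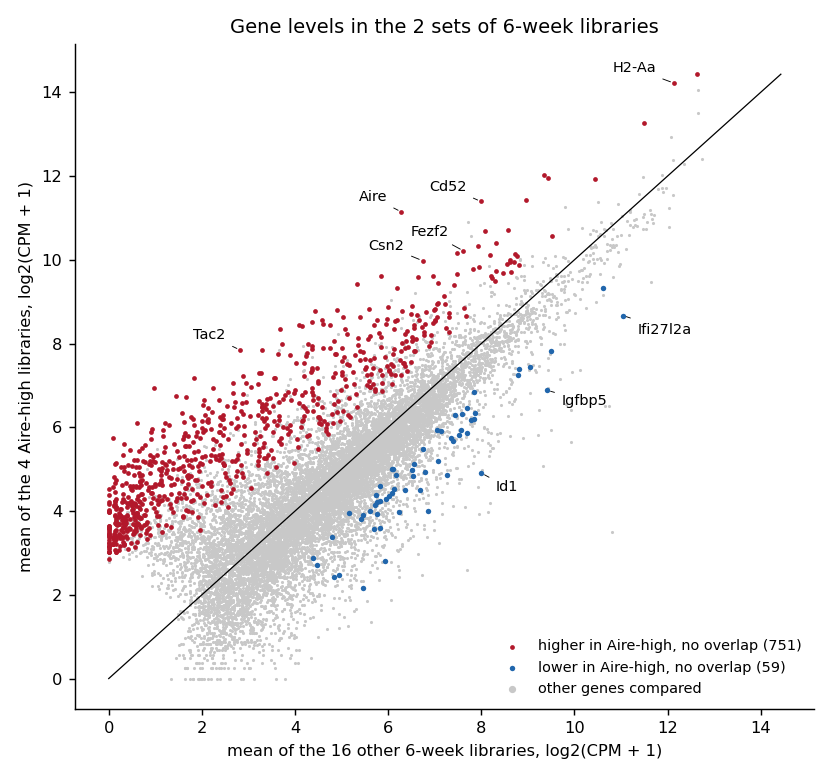
Mean level of each of 13610 genes in the 4 Aire-high libraries (vertical) against the 16 other 6-week libraries (horizontal), both as log2(CPM + 1), with the line of equality. Red points are the 751 genes higher without overlap and blue points the 59 genes lower without overlap; the red cloud spans the whole range of levels and includes many genes near 0 in the other libraries.

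Most of the 751 genes stayed under 100 CPM in the Aire-high libraries, and the level of all genes was not set beside theirs. Their median level in the Aire-high libraries was 42.7 CPM, 227 of them reached 100 CPM and 21 reached 1000 CPM, and 30 had no UMI in any of the 16 others. Together they made up 183290, 151371, 170450 and 149562 CPM in the Aire-high libraries, against 23560 to 54593 CPM in the others. In the other direction, the 59 genes summed to 3430 to 3758 CPM in the Aire-high libraries and to 7936 to 15699 CPM in the others.

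The genes furthest above the other libraries are best known from organs other than the thymus. Tac2, the precursor of neurokinin B, had 261, 228, 277 and 150.2 CPM in the Aire-high libraries (mTEC4 189, cTEC 191, mTEC1 191 and mTEC2 191, the order used throughout). In the others it had a lowest value of 0, a median of 1.88 and a highest value of 40.5 CPM, and the difference was 5.69, slightly above that of Aire at 5.62. Pla2g1b, the secreted phospholipase A2 of pancreatic juice, had 165, 70.5, 167 and 82.2 CPM, against at most 5.48 CPM and a median of 0 in the others. Each of the 4 libraries was above every other 6-week library for both genes, as the definition of separated requires.

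The start regions of these genes are shown because the separated higher genes held fewer CG pairs at their starts than other genes. The sequences are 250 bases before to 50 bases after the annotated start from RefSeq on GRCm38.p6, read 5' to 3' on the gene's strand, with each CG pair in capitals. Pla2g1b (chr5:115465892-115466191, plus strand) holds 2 such pairs and Tac2 (chr10:127724228-127724527, plus strand) 3. Aire (chr10:78043561-78043860, minus strand) holds 16, and Igfbp5 (chr1:72874816-72875115, minus strand), a gene lower in the Aire-high libraries, holds 10.
Pla2g1b: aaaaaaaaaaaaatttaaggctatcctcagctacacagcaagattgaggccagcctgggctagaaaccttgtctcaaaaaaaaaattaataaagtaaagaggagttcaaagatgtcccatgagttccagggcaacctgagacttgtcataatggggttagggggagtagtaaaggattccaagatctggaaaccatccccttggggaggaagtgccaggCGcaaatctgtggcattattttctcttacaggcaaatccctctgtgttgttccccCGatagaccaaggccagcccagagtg
Tac2: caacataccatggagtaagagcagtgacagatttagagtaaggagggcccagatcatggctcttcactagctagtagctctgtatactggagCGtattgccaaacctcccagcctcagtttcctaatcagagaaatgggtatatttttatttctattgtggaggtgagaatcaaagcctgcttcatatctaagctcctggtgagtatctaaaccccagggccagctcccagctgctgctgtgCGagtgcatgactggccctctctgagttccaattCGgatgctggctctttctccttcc
Aire: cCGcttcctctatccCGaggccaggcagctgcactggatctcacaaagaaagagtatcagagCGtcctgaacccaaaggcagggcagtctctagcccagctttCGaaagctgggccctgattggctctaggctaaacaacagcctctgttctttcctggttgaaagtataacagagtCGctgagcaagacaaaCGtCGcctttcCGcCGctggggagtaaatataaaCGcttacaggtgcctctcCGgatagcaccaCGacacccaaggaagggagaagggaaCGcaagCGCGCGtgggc
Igfbp5: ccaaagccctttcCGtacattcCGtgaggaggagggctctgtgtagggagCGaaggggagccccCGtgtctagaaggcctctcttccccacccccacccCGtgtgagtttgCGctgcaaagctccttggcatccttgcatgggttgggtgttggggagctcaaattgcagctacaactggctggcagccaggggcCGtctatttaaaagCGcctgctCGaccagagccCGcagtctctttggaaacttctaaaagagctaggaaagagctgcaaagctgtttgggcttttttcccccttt

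Start regions from that table matched too few of the 751 genes for a count over the set, so the first 300 bases of the annotated transcript were read instead, for 741 of the 751 genes. Their median number of CG pairs was 8 in the separated higher genes, 22 in the separated lower genes and 18 in all genes compared. The ratio of observed to expected CG pairs had medians of 0.393 in the higher genes, 0.767 in the lower genes and 0.689 in all genes. Fewer than 5 CG pairs were found in 22.7% of the higher genes, 7.02% of the lower genes and 10.3% of all genes. These are descriptions of sets chosen on their levels, and draw on 1 transcript per gene.

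Hormones and gut proteins were next. Oxt, the precursor of oxytocin, had 301, 248, 584 and 224 CPM in the Aire-high libraries, against 0 to 175 CPM with a median of 3.81 in the others, where mTEC4 191 was highest. Pyy, a gut peptide hormone, had 472, 467, 279 and 243 CPM, against 0 to 101 CPM in the others. Fabp6, the ileal bile acid binding protein, had 561, 257, 368 and 190.7 CPM, against 0 to 95.2 CPM. For these 3 genes the Aire-high libraries stood apart from all others, as separated genes must. The difference within number 191 alone was less than the overall one (2.47 against 5.58 for Oxt, 2.87 against 5.54 for Pyy, 2.93 against 5.31 for Fabp6). The others of number 191 are cornified-high and those of number 189 Krt5-high, so a difference within a number is against that state alone.

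Digestive enzymes followed. Pgc, a pepsinogen of the stomach, had 184.7, 96.7, 199 and 90.6 CPM in the Aire-high libraries and at most 12.8 CPM in the others, a difference of 5.39. Ctrb1, a chymotrypsinogen of the pancreas, had 288, 197, 275 and 151 CPM, against 0 to 57.1 CPM, a difference of 5.23. Prss29, a tryptase-like serine protease, had 97.1, 109.9, 106 and 88.2 CPM, against a median of 0 and a highest value of 34.3 CPM in the others, a difference of 5.24. The stomach and the pancreas were thus represented by Pgc and Ctrb1, which most other 6-week libraries held at a few UMIs or none.

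Immune and structural antigens stood beside them. Il13, a type 2 cytokine, had 437, 169, 347 and 353 CPM in the Aire-high libraries, against 0 to 50.7 CPM in the others. S100a8, a subunit of calprotectin of neutrophils and an antigen known to depend on Aire, had 444, 526, 394 and 378 CPM, against 0 to 91.4 CPM. Madcam1, an adhesion molecule of gut venules, had a difference of 5.05, and Coch, a protein of the inner ear, of 5.03. For both genes the highest other library stood well under the lowest Aire-high one. Amelx, the amelogenin of tooth enamel, had 57.0, 183.7, 58.7 and 126 CPM, against at most 5.95 CPM. Nppa, the atrial natriuretic peptide precursor, had 85.4, 68.9, 148 and 66.7 CPM, against a median of 0 and a highest value of 34.3 CPM. In the heat map of these genes the other libraries hold scattered low signals. None is as high as the lowest Aire-high value of the same gene, which the choice of separated genes fixed.

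**Figure D3:**
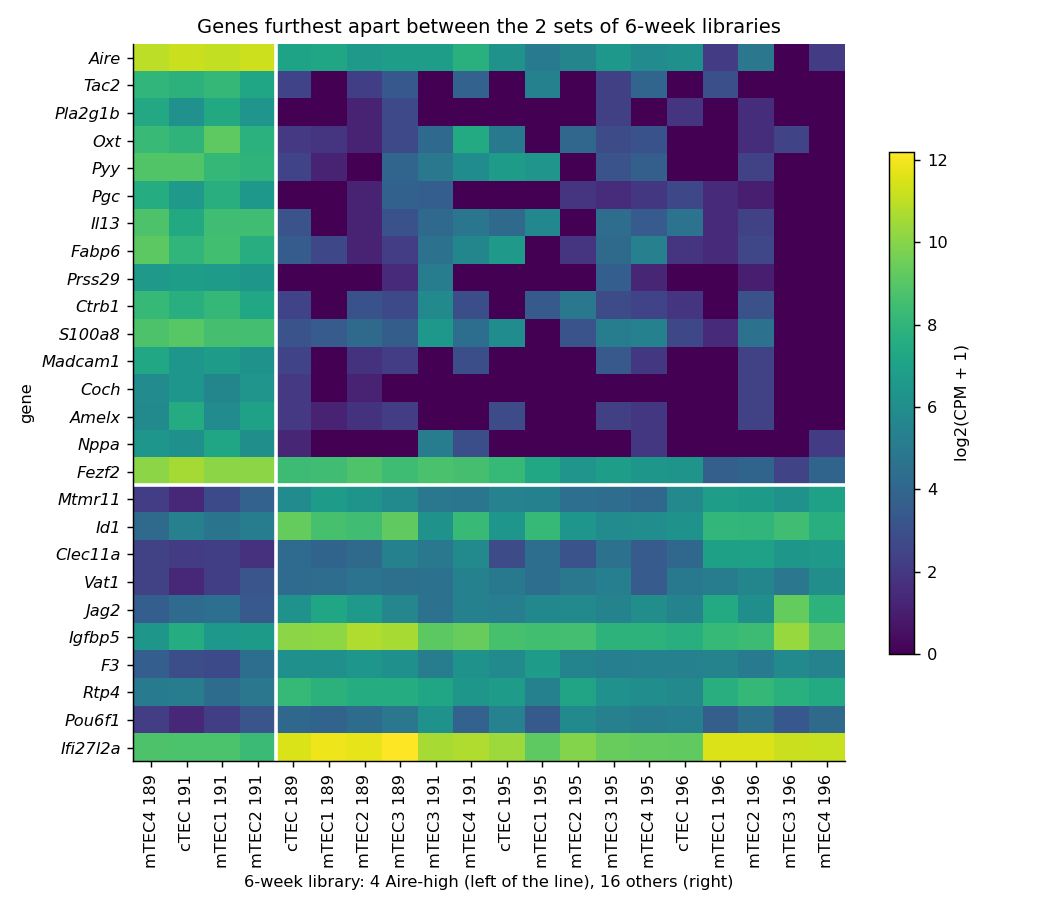
Levels of the 15 genes furthest above, of Fezf2 and of the 10 genes furthest below in the Aire-high libraries, as log2(CPM + 1), 1 column per 6-week library. Columns left of the white line are the 4 Aire-high libraries and those right of it the 16 others; rows above the horizontal line are brighter on the left without overlap and rows under it are darker on the left without overlap.

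Lists of known antigens, chosen with earlier results of these data known, were read by their counts. Of 22 measured genes reported to depend on Aire in mouse, 11 were separated as higher, all 22 had a positive difference and their median was 3.82, beside 0.08 over all genes. Their summed level was 3526, 3789, 3354 and 2981 CPM in the Aire-high libraries, against 3.55 to 2057 CPM with a median of 307 in the others. Csn2, the beta casein of milk, averaged 1008 ± 420 CPM in the Aire-high libraries and 106 ± 108 CPM in the others (SD, n = 4 and 16). Ins2, insulin, averaged 95.1 ± 45.5 and 6.24 ± 9.50 CPM in the same order, and Crabp1, a retinoic acid binding protein, had 135, 68.9, 108.0 and 84.6 CPM against at most 27.0 CPM. Csn1s2a, a further casein, had 54.0, 70.5, 66.3 and 48.9 CPM against at most 9.77 CPM. Of the 11 members without separation, 6 overlapped through 1 other library, 4 through 2 and Iapp (amylin) through 10. For Sst (somatostatin) the highest other library reached 1301 CPM, and its average of 99.6 ± 22.6 CPM in the Aire-high libraries stood beside 98.8 CPM in the others.

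Of 8 measured genes reported to depend on Fezf2, 1 was separated, Grap, an adaptor protein of the Grb2 family, with 390, 328, 358 and 423 CPM in the Aire-high libraries and 7.11 to 214 CPM in the others. All 8 had a positive difference with a median of 3.09. The sum of the list, which also holds Calb1, a gene too low to be compared, was 1429 to 1965 CPM in the Aire-high libraries. It was exceeded by 3 of the 16 others, mTEC4 191, cTEC 195 and mTEC1 195, which reached 2867 CPM. These are cornified-high libraries, and Krt10 is on both this list and the cornified one. Of 8 measured antigens reported not to depend on Aire, 7 had a positive difference, with a median of 2.33, and 1 was separated. That gene is Pcp4, a calmodulin-binding peptide of Purkinje cells, with 66.4, 73.8, 64.4 and 83.4 CPM in the Aire-high libraries and at most 15.6 CPM in the others. The 3 antigen lists thus all had positive medians, and no test of a difference between them was run. Their counts of separated genes stand beside 5.52% of all genes.

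The 3 separated genes of highest level were the MHC class II chains H2-Ab1, H2-Aa and H2-Eb1. H2-Ab1 averaged 22117 ± 9676 CPM in the Aire-high libraries and 6329 ± 4064 CPM in the others, and H2-Aa 19095 ± 5762 and 4498 ± 2439 CPM (SD, n = 4 and 16). Both are chains of the class II molecules that show peptides to CD4 T cells. H2-Oa, a chain of the H2-O protein that restrains peptide loading, had 1822, 1431, 1696 and 1636 CPM, against 95.9 to 457 CPM. H2-DMb2, a chain of the peptide exchange factor H2-M, had 889, 1025, 786 and 919 CPM, against 34.5 to 537 CPM. Ctss, the cathepsin that cuts the invariant chain, had 429, 305, 303 and 358 CPM, against 0 to 243 CPM. For these 3 genes the lowest Aire-high library was above the highest other one, as the definition of separated requires. H2-Ob, the partner chain of H2-Oa, had 43.8, 44.3, 26.5 and 51.3 CPM, against 0 to 22.9 CPM. In all, 8 of the 13 genes of the list were separated as higher, beside 5.52% of all genes, 12 of 13 had a positive difference and the median was 1.99. Ctsl, the cathepsin of cortical TEC, was the exception, with a difference of -2.47.

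The class II sum split the Aire-high libraries into pairs. It was 95170 CPM in mTEC4 189 and 84412 in mTEC1 191, against 55976 in cTEC 191 and 54850 in mTEC2 191, all above the 5938 to 42313 CPM of the others. MHC class I genes differed less: 0 of 13 were separated, their median difference was 0.39, and their sum was 21807 to 31887 CPM in the Aire-high libraries, against 13375 to 23337 CPM in the others. B2m, the light chain of class I, had 9066, 12573, 9497 and 15735 CPM, against 3899 to 10643 CPM, so its ranges overlapped. H2-K1, a class I heavy chain, had a difference of 0.28.

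Of 8 costimulation and checkpoint genes, 4 were separated, beside 5.52% of all genes, and 7 had a positive difference, with a median of 3.07. Their sums overlapped, at 894 to 1063 CPM in the Aire-high libraries and 111 to 1015 CPM in the others. Cd80 had 86.9, 72.1, 79.6 and 115.6 CPM in the Aire-high libraries, against 0 to 40.5 CPM. Cd86 had 27.0, 23.0, 18.9 and 27.4 CPM, against at most 5.71 CPM. Both encode ligands of CD28 and CTLA4 on T cells and were lower in all 16 others. Cd40, the receptor through which T cells drive medullary TEC, had 383, 364, 381 and 354 CPM, against 0 to 173 CPM. Icosl, the ligand of ICOS, had 215, 221, 260 and 253 CPM, against 3.55 to 68.0 CPM.

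Of 14 genes of the NF-kB receptors and subunits, through which RANK and CD40 act on medullary TEC, 4 were separated, beside 5.52% of all genes. A positive difference was found for 10, and the median was 1.09. Relb had 241, 402, 210.3 and 325 CPM in the Aire-high libraries, against 28.5 to 210.0 CPM, so its lowest value lay just above the highest other. Its difference was 1.20 within number 191 and 0.33 within number 189. Nfkb2, its partner subunit, had 752, 679, 773 and 801 CPM, against 151 to 492 CPM. Ikbkb, a kinase of the pathway, had a difference of 1.51, and 0.54 within number 189.

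Of 12 chemokines, 3 were separated, beside 5.52% of all genes. Ccl19, a ligand of Ccr7, had 832, 876, 682 and 687 CPM in the Aire-high libraries, against 0 to 395 CPM, a difference of 4.24. Cxcl9, a ligand of Cxcr3, had 81.0, 82.0, 85.3 and 54.8 CPM, against 0 to 33.3 CPM. Ccl17, a ligand of Ccr4, had 65.0, 49.2, 49.3 and 70.3 CPM, against 0 to 36.7 CPM. All 3 were above every other 6-week library, as separated genes must be, Ccl17 by a narrow margin. Other genes used to describe the Aire stage were separated too. Cd52, a lymphocyte surface glycoprotein, had 3913, 1500.3, 3263 and 2079 CPM, against 23.0 to 1234 CPM, with mTEC3 191 the highest other library. Hdc, the enzyme that makes histamine, had 1021, 569, 868 and 660.3 CPM, against 0 to 177 CPM.

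Of 18 transcription factors of mature medullary TEC, 3 were separated as higher, beside 5.52% of all genes, with a list median of 0.87. Irf4 had 59.9, 141, 66.3 and 120.4 CPM in the Aire-high libraries, against 0 to 27.5 CPM, and Irf8 234, 415, 193 and 359 CPM, against 34.5 to 169 CPM; both are interferon regulatory factors of immune cells. Both were higher in cTEC 191 and mTEC2 191 than in mTEC4 189 and mTEC1 191. Of 20 genes for proteins reported to work with Aire, 1 was higher and 1 lower, and the list median was -0.02. The shares over all genes were 5.52% and 0.434%, and nothing is drawn from counts of 1. Sirt1, the deacetylase reported to act on Aire, had 128.5, 230, 129 and 197 CPM, against 8.78 to 47.6 CPM. Xrcc6, the Ku70 subunit of DNA end joining, had 21.9, 23.0, 11.4 and 10.7 CPM, against 23.3 to 128 CPM, and so lay just under the others.

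Markers of other TEC states were present at intermediate levels. Of 13 cortical genes, 15 cornified genes, 9 microfold genes, 15 tuft genes and 8 ciliated genes, 0 were separated, beside 5.52% of all genes as higher. The 16 others include the cortical-high, cornified-high and tuft-high libraries. For those lists a count of 0 higher was thus all but fixed in advance, and nothing is drawn from it. The cornified sum was 2617 to 3672 CPM in the Aire-high libraries, with 10 of the 16 others under that range and 5 above it. The neuroendocrine sum was 917 to 1314 CPM, with 12 of 16 under and 4 above, and 2 of 12 genes were separated, Pyy and Cck. Cck, cholecystokinin, had 115, 139, 64.4 and 57.2 CPM, against 0 to 50.5 CPM. The tuft sum was 760 to 864 CPM, with 9 of 16 under and 6 above. Thus the Aire-high libraries were not the highest 6-week libraries for any of these 3 states.

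**Figure D4:**
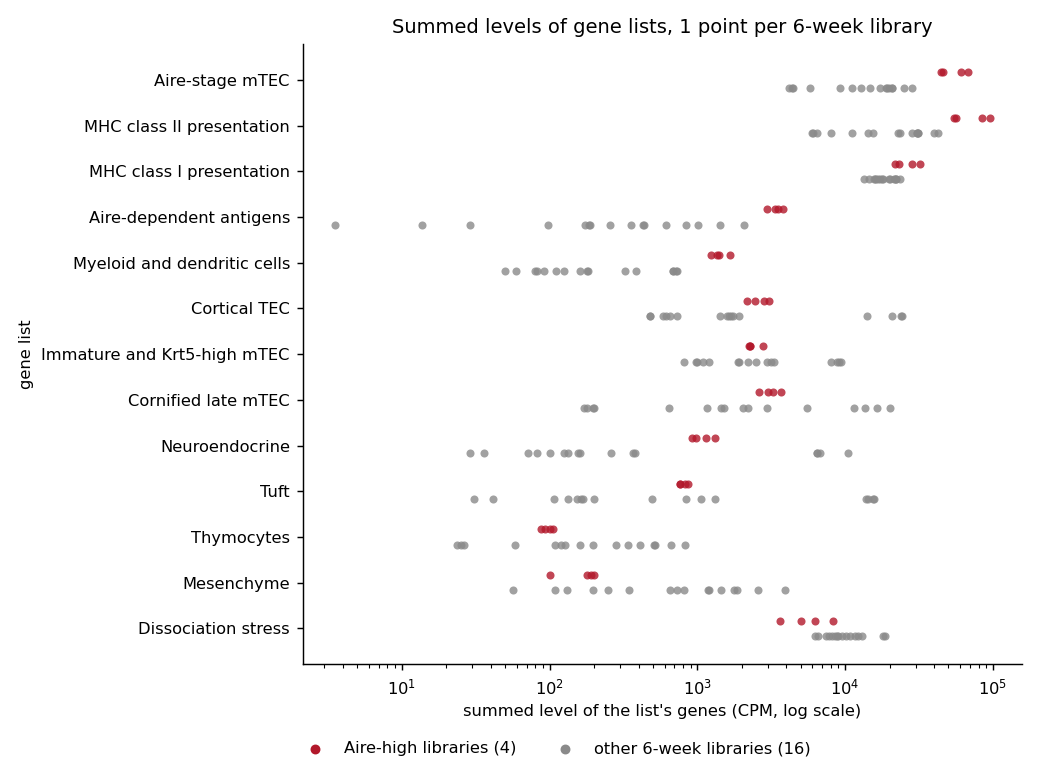
Summed level of the genes of 13 lists in each 6-week library, in CPM on a log axis; red points are the 4 Aire-high libraries and grey points the 16 others. The red points lie above all grey points for the Aire-stage, MHC class II, Aire-dependent and myeloid lists, and between groups of grey points for the cornified, neuroendocrine and tuft lists.

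Some genes of gut, liver and muscle were separated, to be read beside the 5.52% of all genes compared that were separated as higher. All 15 enterocyte and hepatocyte genes had a positive difference, with a median of 2.86, and Apoa1 and Alb were separated. Apoa1, an apolipoprotein of liver and gut, had 234, 185, 212 and 197 CPM in the Aire-high libraries, against 0 to 80.9 CPM. Of 15 secretory genes 1 was separated, Tff2, a gastric trefoil peptide, with 82.5, 54.1, 47.4 and 32.2 CPM against at most 17.1 CPM. The secretory sum was 1678 to 2425 CPM in the Aire-high libraries, with 7 of the 16 others above that range. Of 9 muscle genes 2 were separated, Myh3 and Ttn, and the sum was 154 to 195 CPM against 0 to 858 CPM. Cell cycle genes had 0 of 10 separated, with sums of 207 to 298 CPM against 70.9 to 433 CPM.

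Among the lists of white blood cell genes, the sum of the myeloid one did not overlap between the sets. Of 11 myeloid and dendritic cell genes, 10 had a positive difference and 1 was separated, and the sum was 1230 to 1669 CPM in the Aire-high libraries, against 49.6 to 726 CPM in the others. Lyz2, a lysozyme of macrophages, gave most of it, with 1117, 995, 1046 and 1428 CPM against 4.59 to 539 CPM. Without Lyz2 the sum was 234 to 303 CPM in the Aire-high libraries and 40.5 to 416 CPM with a median of 69.7 in the others. Csf1r, a growth factor receptor of macrophages, was at 18.04 to 64.4 CPM, against a median of 1.83 and a highest value of 41.6 CPM, and Fcer1g, an Fc receptor chain, at 55.5 to 81.5 CPM, against a median of 8.02 and a highest value of 113 CPM. Ptprc, the pan-leukocyte antigen CD45, was at 2.92 to 6.56 CPM in the Aire-high libraries, against a median of 18.4 and a highest value of 40.5 CPM in the others. Of 4 B cell genes all had a positive difference and Blk, a Src family kinase, was separated, with a list sum of 73.8 to 145 CPM against 0 to 280 CPM. Whether myeloid or B cells contributed to the differences above was not tested.

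Thymocyte, endothelial and mesenchymal genes had 0 separated members of 12, 8 and 9, and their medians were -0.83, -1.57 and -0.76. The thymocyte sum was 87.2 to 105 CPM in the Aire-high libraries, against 23.8 to 831 CPM. Of 8 endothelial genes, Emcn and Tie1 had no UMI in 3 of the 4 Aire-high libraries, but also none in 4 and 5 of the others. Plvap, the 1 member with a positive difference (0.03), had 42.3, 73.8, 20.8 and 52.4 CPM in the Aire-high libraries. In the others it had 6.54 to 811 CPM with a median of 29.8. The endothelial sum was 26.5 to 107 CPM in the Aire-high libraries, most of it from Plvap, against 21.5 to 1328 CPM in the others. Erythroid Alas2, an enzyme of heme synthesis, was separated as higher at 15.2 to 37.7 CPM against at most 11.9 CPM. All 12 genes of dissociation stress had a negative difference with a median of -1.09 and 0 were separated. Fos, an immediate early gene, had 354, 531, 544 and 869 CPM in the Aire-high libraries, against 735 to 2613 CPM.

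The genes separated as lower included regulators and some interferon-stimulated genes. Id1, an inhibitor of basic helix-loop-helix factors and a target of BMP signals, had 17.5, 39.4, 24.6 and 34.6 CPM in the Aire-high libraries, against 58.6 to 632 CPM with a median of 266 in the others. Igfbp5, an insulin-like growth factor binding protein, had 88.3, 190.2, 90.9 and 98.9 CPM, against 202 to 1727 CPM. The gap between the sets was narrow for Igfbp5 and wider for Id1. Jag2, a Notch ligand, had 11.7, 18.04, 20.8 and 9.54 CPM, against 22.9 to 643 CPM. F3, tissue factor, had 11.7, 6.56, 5.68 and 20.3 CPM, against 33.0 to 101 CPM. Each of these genes was under all 16 others in all 4 libraries, as the definition of separated requires.

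The interferon-stimulated genes Ifi27l2a and Rtp4 were among them. Interferon-stimulated genes were not read as a set, so these values do not speak for others. Ifi27l2a had 447, 428, 434 and 317 CPM in the Aire-high libraries, against 578 to 4714 CPM with a median of 1994 in the others. Rtp4 had 31.4, 34.4, 18.9 and 27.4 CPM, against 40.5 to 289 CPM. The largest difference was that of Mtmr11, a member of the myotubularin family, at -2.94, with 1.64 to 13.1 CPM against 16.4 to 124 CPM. Clec11a, a secreted growth factor, had a difference of -2.56, Vat1, a vesicle membrane protein, one of -2.32, and the POU factor Pou6f1 one of -2.14.

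The separated genes lay close together in the genome more than once. Of the 741 separated higher genes with a position, 226 (30.5%) had another one within 100 kb, and 27 runs held 3 or more. Genes in this and the next paragraph that were not named above were chosen after their values were seen. The longest run held 10 genes of the class II region (chr17:34092340-34460734, GRCm38), from H2-Oa to BC051142. A run of 6 on chromosome 2 (chr2:25676786-25847248) held the lipocalins Lcn6, Lcn10, Lcn3 and Lcn11 with Obp2a and Sohlh1, and a run of 6 on chromosome 3 (chr3:90526856-90670035) held S100a14, S100a16, S100a3, S100a2, S100a4 and S100a8. Runs of 3 to 5 held the carboxylesterases Ces1a, Ces1c, Ces1d, Ces1f and Ces1h, the mast cell proteases Cma1, Mcpt1, Mcpt2 and Mcpt4, the caseins Csn1s1, Csn2 and Csn1s2a, the cytokines Il13 and Il5 with Rad50, and the peroxidases Mpo, Lpo and Epx. Where such families hold near-identical copies, the authors' counting could have divided reads among them. The share of neighbours expected for genes of this kind was not tested.

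Aire itself lies in such a run (chr10:78030022-78083913) with Dnmt3l and Icosl. Dnmt3l, a cofactor of DNA methylation best known from germ cells, had 61.3, 42.6, 54.9 and 64.4 CPM in the Aire-high libraries, against 0 to 33.7 CPM with a median of 1.67 in the others, a difference of 3.92. Its gene body (78041947 to 78063622, plus strand) overlaps the start of Aire (78030022 to 78043610, minus strand). The overlap holds the annotated starts of both genes. The method counts 3' ends, which are annotated outside it, at 78030022 for Aire and 78063622 for Dnmt3l. The sources used here do not say whether the counting used strand, so any reads from the overlap cannot be assigned to 1 of the 2 genes. How many reads fell there was not tested. In the same way the Il13 run holds Il5, an eosinophil cytokine, at 23.3 ± 1.93 CPM in the Aire-high libraries and 0.367 ± 1.07 CPM in the others (SD, n = 4 and 16).

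The Aire-high libraries varied less among themselves than the others, which mix marker states and reach lower depth. The spread within each of those states was not read. The median SD over the 751 separated genes was 0.39 log2 units in the Aire-high libraries and 0.88 in the others, and over all genes 0.46 and 1.12. Gapdh, a glycolytic enzyme often used as a constant gene, had 1530.3 CPM in mTEC4 189, against 14.8, 11.4 and 10.7 CPM in the 3 libraries of number 191. In the 16 others it ran from 0 to 551 CPM, so it varied widely in both sets. Rps3a1, a ribosomal protein gene, had 759 CPM in cTEC 191 and 1055 in mTEC2 191, but 15.3 in mTEC4 189 and 24.6 in mTEC1 191. The same pairs of libraries stood together for class II and for Irf4 and Irf8.

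Genes that do not overlap must keep their sign within each number, so the sizes alone are given, as far as the numbers hold. The difference was 2-fold or more for 712 of the 751 within number 191 (3 Aire-high libraries against 2 others) and for 682 within number 189 (1 against 4). The 2 others of number 191 are cornified-high and the 4 of number 189 Krt5-high, so number and marker state cannot be told apart. Numbers 195 and 196 hold no Aire-high library. Among the 16 others, the highest library for the separated higher genes was most often mTEC4 191 (92 of 751 genes) and mTEC3 191 (83 genes), which are shallow at 148307 and 175014 UMIs. Without mTEC4 191 there were 814 separated higher genes, and without mTEC3 191 there were 833.

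The same genes were then read in libraries the rule had not used, at day 6, where 1 title had more Aire than the others. Aire had 434 and 556 CPM in the day 6 libraries titled mTEC1, against 95.4 and 32.9 CPM in mTEC2 and 33.7 and 24.4 CPM in mTEC4. It was higher in mTEC1 by 3.55 ± 0.39 log2 units (SE) against the mean of the other titles, with an adjusted p of 0.00412 (limma over 11543 genes, Benjamini-Hochberg). Fezf2 had 210 and 207 CPM in mTEC1, against 49.2 and 59.8 CPM in mTEC2 and 18.1 and 17.4 CPM in mTEC4, and was higher by 2.67 ± 0.34 (limma adjusted p = 0.00606). Both calls were lost without either mTEC1 library. This contrast was chosen with the Aire values known, and earlier results of these data already showed them, so it is not independent support. Every p-value here measures only the spread between these libraries, which may be technical.

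In that comparison limma called 233 genes higher in mTEC1 (2.02% of those tested) and 128 lower (1.11%). Of the 751 separated higher genes 454 passed the filter on low values, which a gene can pass through the group where it is high, and 84 of the 751 were called higher and 1 lower. With no filter 736 were tested and 108 called higher, with a median difference of 1.07 beside 0.15 over all genes. Their summed level was 67984 and 65794 CPM in mTEC1, against 31315 and 22912 in mTEC2 and 33615 and 34761 in mTEC4. Of the 59 separated lower genes 3 were called lower and 1 higher. Without mTEC1 replicate 1 or without mTEC1 replicate 2 the count of separated genes called higher was 0, in a fit that takes the lone library to vary like the other groups. Without mTEC2 replicate 1 it was 171, so these counts rest on single libraries.

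Of the 22 antigens in the table reported to depend on Aire, 14 passed the filter on low values and 3 were called higher in mTEC1. With no filter 21 were tested and 5 called. Their sums were 1175 and 1128 CPM in mTEC1, against 56.8 to 560 CPM in the other titles. Among the separated genes, Fabp6 had 107 and 121 CPM in mTEC1, against 0 and 2.99 CPM in mTEC2 and 0 and 0 CPM in mTEC4 (difference 5.68 ± 0.77, limma adjusted p = 0.00801). Il13 had 42.3 and 52.6 CPM, against 0 and 14.9 CPM in mTEC2 and 0 and 0 CPM in mTEC4 (adjusted p = 0.0354 by limma). Oxt had 172 and 149 CPM, against 21.5 and 35.9 CPM in mTEC2 and 15.6 and 0 CPM in mTEC4 (adjusted p = 0.0453 by limma), and Pgc and Coch passed with adjusted p of 0.0311 and 0.0496. All 5 calls were lost in a fit of the day 6 libraries alone, and those of Fabp6, Il13, Oxt and Pgc also without either mTEC1 library, where Coch was not tested. Those of Il13, Pgc and Coch were also lost without either mTEC4 library, that of Coch by edgeR, by DESeq2 and with the replicate block, and that of Oxt with the block and with no filter. Tac2, at 70.5 and 42.1 CPM in mTEC1 against 0 to 13.9 CPM in the others, did not pass (limma adjusted p = 0.0715).

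Presentation genes were also called at day 6. H2-Eb2, a class II beta chain, had 76.8 and 107 CPM in mTEC1, against 3.08 and 2.99 CPM in mTEC2 and 0 and 0 CPM in mTEC4 (limma adjusted p = 0.00412). Of 12 class II genes tested 7 were called higher and 0 lower, and H2-Oa, H2-DMb2 and Cd40 rose by 1.63, 1.87 and 1.70 log2 units (limma adjusted p = 0.0217, 0.0115 and 0.0176). Ccl19 rose by 3.40 ± 0.60 (limma adjusted p = 0.0175). Id1 fell by 2.23 and Igfbp5 fell by 3.18 log2 units (limma adjusted p = 0.00927 and 0.0115), as 2 of the 3 separated lower genes called lower at day 6. All of these calls were lost without either mTEC1 library, and those of H2-Eb2, H2-Oa, H2-DMb2, Cd40, Ccl19 and Id1 also in a fit of the day 6 libraries alone.

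The day 6 titles differed in more than Aire. Of 13 cortical genes 11 were called higher in mTEC1 and 0 lower, with summed levels of 17633 and 22304 CPM in mTEC1, against 3998 and 2260 in mTEC2 and 10599 and 6435 in mTEC4. Prss16, a cortical protease, had 5857 and 7398 CPM in mTEC1, against 1858 ± 1423 CPM over the other 4 (SD). Of 8 endothelial genes 7 were called lower in mTEC1, with sums of 175 and 188 CPM, against 1148 to 4860 CPM in the other titles, and tuft genes stood at 128 and 209 CPM, against 6564 and 4265 in mTEC2 and 101 and 181 in mTEC4. The part that these genes play in the counts of separated genes was not tested.

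In the embryo, Aire had 362 and 383 CPM at E17, against 45.7 and 35.2 CPM at E15, and was higher at E17 by 3.16 ± 0.45 log2 units (limma adjusted p = 0.0127). Fezf2 had 110 and 145 CPM at E17, against 11.2 and 6.35 CPM at E15 (difference 3.64 ± 0.39, limma adjusted p = 0.00373). Limma called 86 genes higher at E17 (0.745% of those tested) and 2 lower (0.0173%). Of the 751 separated higher genes 24 were called higher at E17 and 0 lower. With no filter it was 17 of 736, with a median difference of 0.84 beside 0.07 over all genes. Of the 59 separated lower genes 3 were called higher, Ifi27l2a and Rtp4 among them.

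Of 15 Aire-stage genes tested, 6 were called higher at E17 and 0 lower, Aire and Fezf2 included. Cd52 had 66.3 and 71.5 CPM at E17, against 6.41 and 5.19 CPM at E15 (limma adjusted p = 0.0116), Hdc had 131 and 107, against 4.01 and 6.35 CPM (limma adjusted p = 0.0312), and Ctss had 62.8 and 60.6, against 3.20 and 2.89 CPM (limma adjusted p = 0.0213). Grap had 22.1 and 50.6 CPM at E17, against 1.60 and 1.15 CPM at E15 (limma adjusted p = 0.0224). Lyz2, the lysozyme gene, rose too (50.4 and 26.8 CPM, against 4.01 and 2.31 CPM, limma adjusted p = 0.0274), while the other 8 myeloid genes tested were not called. Of the 22 antigens reported to depend on Aire 14 passed the filter and 0 were called at E17, and 0 of 21 were called with no filter. Their sums were 423 and 393 CPM at E17, against 15.2 and 8.08 CPM at E15. Leaving out any 1 of the 4 embryonic libraries gave 1 to 5 separated genes called higher in place of 24. Aire was not called in any of these 4 fits, Fezf2 was called without either E15 library, and Ifi27l2a in all 4.

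Stress genes and Gapdh moved with embryonic age. Of 12 dissociation stress genes 8 were called higher at E17, with sums of 5799 and 5542 CPM, against 1149 and 1748 CPM at E15. Gapdh stood at 20.3 and 25.8 CPM at E17, against 710 and 749.7 CPM at E15. Their part in the differences was not tested.

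Both comparisons called 15 of the 751 genes higher, out of 84 at day 6 and 24 at E17: Aire, Fezf2, Sspo, Mt4, Vmo1, Calca, H2-Eb2, Srgn, Cdx1, Fgf21, Lpo, Ubd, H2-Oa, Skint10 and Hagh. Over all 11543 genes tested, 21 were called higher in both (0.182%). A gene can pass the filter on low values through the group where it is high. With no filter 13 of 14970 genes were called higher in both (0.0868%), and 9 of them were separated. The embryonic calls of H2-Oa, H2-Eb2 and Vmo1 were lost in that setting. In a fit of the day 6 libraries alone the day 6 calls of Mt4, Vmo1, H2-Eb2, Srgn, Cdx1, Ubd, H2-Oa and Hagh were lost. The calls of each comparison rested on single libraries, as given above, and so does their overlap. The comparisons share no libraries but were fitted together. Srgn, the proteoglycan serglycin of secretory granules, had 5428, 3038, 4089 and 4132 CPM in the Aire-high 6-week libraries, against 55.1 to 1814 CPM in the other 6-week libraries. It had 1675 and 1561 CPM in day 6 mTEC1, against 203 to 836 CPM in the other day 6 titles, and 805 and 876 CPM at E17, against 63.3 and 46.2 CPM at E15. Ubd, the ubiquitin-like modifier FAT10, had 3510, 3620, 3088 and 5594 CPM, against 49.6 to 1811 CPM at 6 weeks. Mt4, a metallothionein of stratified epithelia, had 131, 68.9, 117 and 129.9 CPM against at most 33.7 CPM at 6 weeks, and no UMI in any day 6 mTEC2 or mTEC4 or E15 library. Cdx1, an intestinal homeobox factor, had 497, 443, 364 and 365 CPM against 0 to 233 CPM at 6 weeks.

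**Figure D5:**
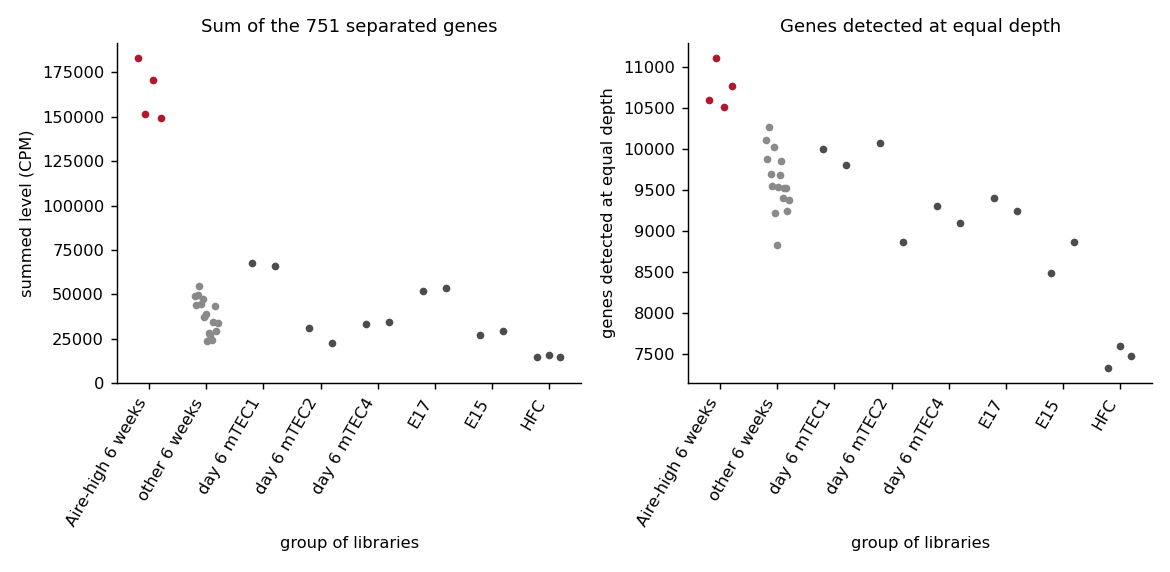
Left, summed level in CPM of the 751 separated higher genes in every library, and right, genes expected at an equal depth of 98670 UMIs (this axis does not start at 0); each point is 1 library. The Aire-high libraries lie at 149562 CPM or more, day 6 mTEC1 at 67984 and 65794 CPM above the other day 6 titles, and E17 at 52175 and 53511 CPM above E15.

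Over the series the sum of the 751 genes, which were chosen for their level in the Aire-high libraries, was 149562 to 183290 CPM in the Aire-high libraries, 65794 and 67984 in day 6 mTEC1, 52175 and 53511 at E17, 23560 to 54593 in the other 6-week libraries, and 14782 to 16112 in HFC. E17, E15 at 27013 and 29680 CPM, day 6 mTEC4 and 1 of 2 day 6 mTEC2 libraries fell within the range of the other 6-week libraries. In HFC, Aire was at 0, 3.12 and 4.42 CPM, at or under the floor of 3 UMIs, and so was Fezf2 at 1.92, 3.12 and 1.47 CPM. Genes detected at equal depth numbered 10006 and 9810 in day 6 mTEC1, which overlapped with 10073 and 8871 in mTEC2 and lay above 9306 and 9101 in mTEC4. They numbered 9410 and 9249 at E17, against 8488 and 8868 at E15.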

How the data were processed

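The deposited table, a signal of UMIs per gene as percent of each library (columns sum to 100 in the authors' file), was made from MARS-seq reads with bcl2fastq, cutadapt, STAR 2.4.2a, HTSeq and DESeq2 on mm10, per the submitters' processing notes. The design had assumed normalized counts. Whole UMIs were recovered in 33 of 33 columns (within 0.01) and used for depth and count tests. Values were scaled to 570253 UMIs and read as log2(value + 1), keeping genes that reached a scaled value of 5 in 2 or more compared libraries. The 6-week sets were described without tests. Elsewhere limma 3.58.1 (trend, Benjamini-Hochberg, threshold 0.05) was fitted over 11543 genes in 10 libraries, and tested on simulated data. Alternatives used edgeR 4.0.16 and DESeq2 1.42.0. Positions follow GENCODE M21 on GRCm38 (14991 of 15273 symbols found). The members and lists were chosen with earlier results of these data known. Genes were named by a fixed rule: Aire and Fezf2, the 15 separated genes furthest above and 10 furthest below, up to 4 separated members of each list (2 of the highest level where none was), the 10 called in both tested comparisons by smallest p, and markers of other cells near 0. H2-Aa, H2-Ab1, Csn2, Ins2, Sst, Ctsl, Gapdh, Rps3a1, Psmb11, Csf1r, Fcer1g, Iapp and the genes of neighbouring runs were chosen after their values were seen. Start regions matched under 80% of the separated genes, so that count was void. The values of 1 list member are not reported here.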

Additional observations from a re-analysis of the deposited data

Results flagged for a closer look

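Among the 4 Aire-high libraries, 5 named genes had 1 library far from the other 3, where chance flags about 1 in 20 groups and 89 genes were checked. Fezf2 stood at 1500 CPM in cTEC 191, against 1077 to 1091 CPM in the rest. Igfbp5 stood at 190 CPM in cTEC 191, against 88.3 to 98.9 CPM. Ifi27l2a stood at 317 CPM in mTEC2 191, against 428 to 447 CPM. Cxcl9 stood at 54.8 CPM in mTEC2 191, against 81.0 to 85.3 CPM. Thy1, a surface protein of thymocytes, stood at 68.6 CPM in mTEC4 189, against 29.5 to 32.2 CPM.

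For 2 genes the Aire-high libraries lay below the others within number 191 and above them within number 189. Gng13, a G protein subunit of taste and tuft cells, differed by -0.69 within number 191 and by 2.61 within number 189, a gap of -3.30. Thy1 differed by -2.01 and 2.05, a gap of -4.07. Within number 191 the others are the cornified-high libraries and within number 189 the Krt5-high ones. Number and leading markers thus cannot be told apart, and these differences were not tested.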

How the results depend on the processing

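The 751 genes separated as higher became 318 with a mean filter of 10, 2196 within number 191 alone, 1196 within number 189 alone, 245 with an Aire threshold of 0.2% and 1269 against others of at least 200000 UMIs, a choice made after seeing the data. Leaving out 1 library gave 752 to 835. The 59 lower genes became 36 with median of ratios scaling, 153 with number as a replicate block (776 higher, of which 570 were among the 751, and 39 of the 59 lower), 1126, 2189, 26 and 229 in the same order of the last 4 settings, and 58 to 90 without 1 library. An Aire threshold of 0.05% gave the same 2 sets. Median of ratios scaling moved the median of all genes to 0.25, against 0.08.

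At day 6 the 233 higher genes became 7 in a fit of the compared groups alone and 0 to 1177 without 1 library, and the 128 lower genes became 226 with a pseudocount of 5, 221 by DESeq2, 17 alone and 0 to 568. The 84 separated genes among them became 40 with a mean filter of 10, 3 alone and 0 to 171 without 1 library. At E17 the 86 higher genes became 165 by edgeR, 238 by DESeq2, 452 alone and 4 to 15 without 1 library. The 2 lower genes became 1 without a filter, 1 with median of ratios scaling, 7 by DESeq2, 1 with the replicate block, 53 alone and 1 without 1 library. The 24 separated genes became 56 by edgeR, 78 by DESeq2, 139 alone and 1 to 5 without 1 library. The causes were not tested.

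The shared numbers were not taken as pairing, which needed every pair above 0.1: same-numbered deviations correlated at -0.30 to 0.72 at 6 weeks (24 of 40 pairs above 0.1), 0.00910 in the embryo and -0.00159 to 0.0404 at day 6. With the block, 184 genes were higher at day 6 (70 separated) and 20 separated genes at E17. Of the values of named genes under these settings, 449 moved and 2455 did not at 6 weeks; at day 6 91 lost and 48 gained their call, and in the embryo 81 and 36, with no called value changing sign. The shallowest other libraries, at 98670 to 175014 UMIs, have the highest floors and limit which rare antigens could separate.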
